A study of Rickenella mellea with 14 samples.

Results

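The step from primordium to young fruiting body of the mushroom Rickenella mellea was followed in 6 of the 14 RNA-seq libraries of the series, 3 from young fruiting bodies and 3 from primordia, chosen by their labels. Young fruiting bodies (replicates 1 to 3) stood 5 to 15 mm tall and carried a cap 1 to 2 mm wide. The primordium group pools different stages: replicates 1 and 3 were stage 2 primordia, 2 to 3 mm tall with a small cap initial, while replicate 2 was a stage 1 primordium, about 1 mm tall and without one. All 6 were collected in the field, were sequenced on the same flow cell, and carry the strain label SZMC22713, as do the other 8 libraries. Those come from cultured mycelium (n = 3) and from mature bodies split into cap (n = 3) and stipe (n = 2). They serve here as context and for the shared estimate of spread. They also enter the scaling and the filter on low counts, and define groups of genes. Cap and stipe libraries share the flow cell of the 6, while the mycelium libraries were run on another. In mycelium, stage, culture and flow cell thus cannot be told apart. Both groups were whole, undivided structures, and the libraries are described as biological replicates without the number of individuals behind each, so a p-value weighs a difference against the spread of these particular libraries only. In such bulk RNA, more cells of a type and more RNA per cell cannot be told apart.

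A primordium is a compact aggregate of hyphae in which the tissues of the later mushroom are laid down. In the young fruiting body the stipe lengthens and the cap widens, in mushrooms largely by expansion of existing cells, and the spore-bearing layer matures under the cap. The files give no product names for the gene models, so genes are named by model number, no gene function is given, and the tissues could not be checked against marker genes. Groups of genes were therefore defined by their length or by their levels in the 8 libraries outside the comparison.

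Library totals were 32.9 to 44.6 in units of 1e6 reads in young fruiting bodies and 14.3 to 18.4 in primordia. Levels are CPM, counts scaled to 1e6 reads after TMM scaling (a scaling by the bulk of genes), or RPKM, the same per kilobase of gene model. TMM factors were 0.896 to 1.07 in young fruiting bodies and 0.572 to 0.786 in primordia, so scaling bears on every direction reported here.

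A larger set of genes rose than fell, but the fallen genes held most of the reads of primordia. A gene was called when the quasi-likelihood test of edgeR put its adjusted p below 0.05 and the change was 2-fold or more. Of 15559 genes tested, 33.7% were called: 3192 (20.5%) were higher and 2045 (13.1%) lower in young fruiting bodies. At least 4-fold changes were called for 16.7% of genes. The 3 libraries of each group did not overlap for 46.6% of genes, with young fruiting bodies above primordia for 29.1% and below for 17.5%. Among called genes the groups did not overlap for 3123 of the 3192 higher and 1817 of the 2045 lower ones.

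The split between directions moved with the scaling. DESeq2 size factors gave 2835 higher and 2376 lower genes and moved the median log2 change of all genes by -0.14. Library size alone gave 4880 higher and 1100 lower genes and moved that median by 0.54. Removing each library's trend on gene length gave 3278 higher and 1883 lower genes. Called in the same direction under all 4 of these were 2744 genes (86.0% of the higher ones) and 1096 genes (53.6% of the lower ones).

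Large rises were more frequent than large falls. Of the higher genes 639 (20.0%) changed at least 16-fold, and of the lower genes 145 (7.09%). The median size of change was 2.17 on the log2 scale among higher genes and 1.81 among lower genes. Many risen genes started from very little: 733 of the higher genes (22.96%) stayed under 1 CPM in every primordium library. Only 80 of the lower genes (3.91%) stayed under 1 CPM in every young fruiting body library. A gene so low in 1 group can be called in only 1 direction. The share of all tested genes this low in each group is not given here, so these counts have no background. Of those 733 genes, 426 averaged at least 1 CPM in mycelium, 436 in cap and 384 in stipe.

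The called genes made up very different parts of the libraries. Genes higher in young fruiting bodies took 37.4%, 27.7% and 32.9% of the reads of young fruiting body replicates 1, 2 and 3, against 4.07%, 4.02% and 6.22% of the reads of primordium replicates 1, 2 and 3. Genes lower in young fruiting bodies took 15.6%, 22.2% and 17.8% of reads in young fruiting bodies, against 60.6%, 62.1% and 51.3% in primordia. The genes were chosen on these libraries, so the gap in their shares is a description. In mature tissue, which did not choose them, the higher genes took 31.1% to 33.8% of reads in caps and 14.5% and 19.7% in stipes. The lower genes took 16.9% to 19.5% in caps and 25.5% and 27.7% in stipes.

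**Figure D1:**
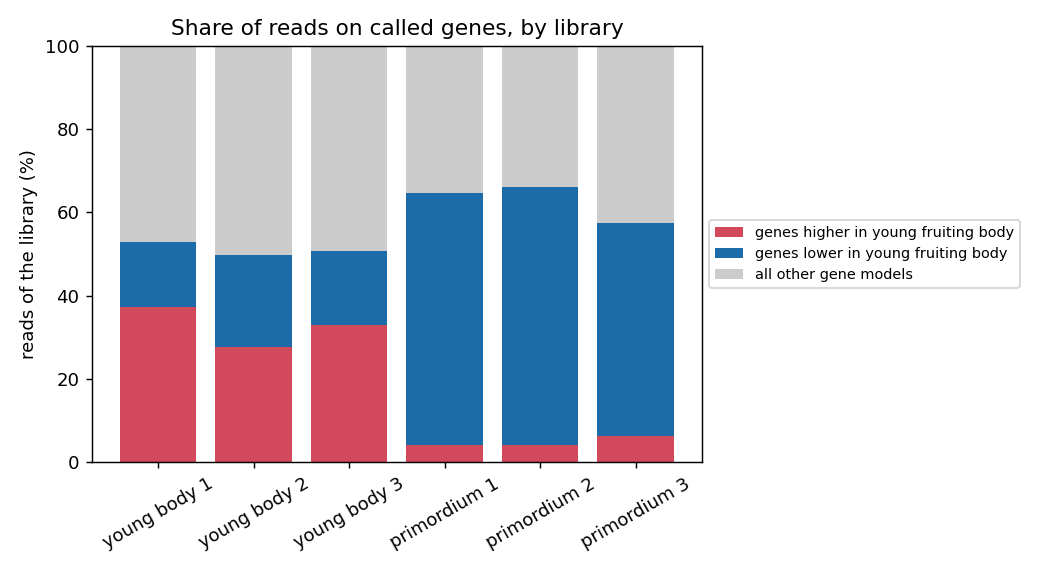
Share of each library's reads (%, stacked bars, 1 bar per library) on genes called higher in young fruiting body, genes called lower and all other gene models. The lower genes take 51.3% to 62.1% of reads in the 3 primordium libraries, and at most 22.2% in the young fruiting body libraries.

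In these libraries, primordium reads were concentrated on fewer genes. The 100 most abundant gene models of each library held 23.8%, 24.6% and 20.8% of reads in young fruiting body replicates 1, 2 and 3, against 34.4%, 34.4% and 26.9% in primordium replicates 1, 2 and 3. The groups did not overlap. The means were 23.04% ± 2.02 in young fruiting bodies and 31.9% ± 4.31 in primordia (SD, n = 3 each; exact permutation test, two-sided p = 0.1, the smallest that 20 splits allow, 0.15 after Benjamini-Hochberg adjustment over 3 such measures). The number of gene models needed to cover the more abundant 50% of reads was 663, 606 and 801 in young fruiting bodies, against 273, 283 and 467 in primordia. Primordium replicate 3, a stage 2 library, was the least concentrated of its group on both measures.

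Fewer gene models were also detected in each primordium library. At a common depth of 14.3 in units of 1e6 reads, 15303, 15267 and 14995 gene models had at least 1 read in young fruiting body replicates 1, 2 and 3, against 13463, 13645 and 13889 in primordium replicates 1, 2 and 3. The means differed by 1523 gene models (exact permutation test, two-sided p = 0.1, the smallest possible, adjusted p = 0.15). Every young fruiting body library lay above every primordium library. Caps and stipes, at 15202 to 15558 gene models, also lay above the primordia at this depth.

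Some of these genes had no read at all in primordia. No read in any primordium library and at least 1 CPM, here by library total, in every young fruiting body library held for 45 genes, and the opposite for 6 genes. The counting floor, 3 reads over the summed group, was 0.0594 CPM in primordia and 0.0253 CPM in young fruiting bodies, since young fruiting bodies were sequenced more deeply. Against it the 45 genes were at least 18.8-fold to at least 707-fold higher in young fruiting bodies, with a highest level of 42.0 CPM. All 45 had reads in cap and in stipe libraries and 44 had reads in mycelium. These floors cover counting error only.

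The genes at the top of the ranking changed places. Of the 100 gene models with the highest mean RPKM in young fruiting bodies and the 100 highest in primordia, 32 were on both lists. Of the primordium list 78 were called lower in young fruiting bodies and 0 higher. Of the young fruiting body list 51 were called higher and 14 lower. Each list was drawn from a group of the comparison itself, so these directions are partly set by the choice.

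Gene models are named by the size of their change in RPKM, among 3583 genes that did not overlap, had at least 95% unique reads and held their call under the 4 scalings. The largest gain was that of gene model 809667, a model of 360 bases. Its level was 53590, 8717 and 8.15 RPKM in young fruiting body replicates 1, 2 and 3, against 2.72, 0.949 and 2.23 RPKM in primordium replicates 1, 2 and 3. The groups did not overlap, but replicate 3 of the young fruiting body, with 128 reads, stood far below the 821012 and 92469 reads of the other young fruiting bodies and close to the primordia, which had 4 to 10 reads. The log2 change was 13.4 ± 2.5 (SE; edgeR adjusted p = 0.00131), while limma-voom did not call it (adjusted p = 0.225). Without young fruiting body replicate 1 the log2 change was 11.12. The gene was high in all mature libraries, at 4531 ± 2492 RPKM in caps (SD, n = 3) and 11520 and 2677 RPKM in stipes.

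Gene model 717449, 1239 bases long, had the next largest gain. It stood at 12390, 16740 and 8258 RPKM in young fruiting body replicates 1, 2 and 3, against 540, 165 and 170 RPKM in primordium replicates 1, 2 and 3. The groups lay far apart, and primordium replicate 1 was the highest of its group. The log2 change was 5.42 ± 0.67 (SE; edgeR adjusted p = 0.000123), and 6.18 without primordium replicate 1. Mature caps held it at 14030 ± 4814 RPKM (SD, n = 3) and stipes at 8791 and 6355 RPKM, while mycelium had 3.00 ± 1.22 RPKM (SD, n = 3).

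The largest loss was that of gene model 791159, 694 bases long and the most abundant model per length in primordia. It had 2238, 6566 and 1806 RPKM in young fruiting body replicates 1, 2 and 3, against 45970, 26770 and 11090 RPKM in primordium replicates 1, 2 and 3. The highest young fruiting body value lay below the lowest primordium value, with a spread of several fold within each group. The log2 change was -2.98 ± 0.63 (SE; edgeR adjusted p = 0.00271). It was -3.79 without young fruiting body replicate 2 and -2.43 without primordium replicate 1. Mature tissues differed: caps had 527 ± 125 RPKM (SD, n = 3), and stipes had 8982 and 15560 RPKM.

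Gene model 793658, 380 bases long, fell to 1668, 3058 and 1755 RPKM in young fruiting body replicates 1, 2 and 3, against 37670, 15510 and 8008 RPKM in primordium replicates 1, 2 and 3. The groups did not overlap, and primordium replicate 1 stood well above the other primordia. The log2 change was -3.24 ± 0.55 (SE; edgeR adjusted p = 0.000701), and -2.47 without primordium replicate 1. Caps had 1653 ± 239 RPKM (SD, n = 3) and stipes 3472 and 6080 RPKM.

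**Figure D2:**
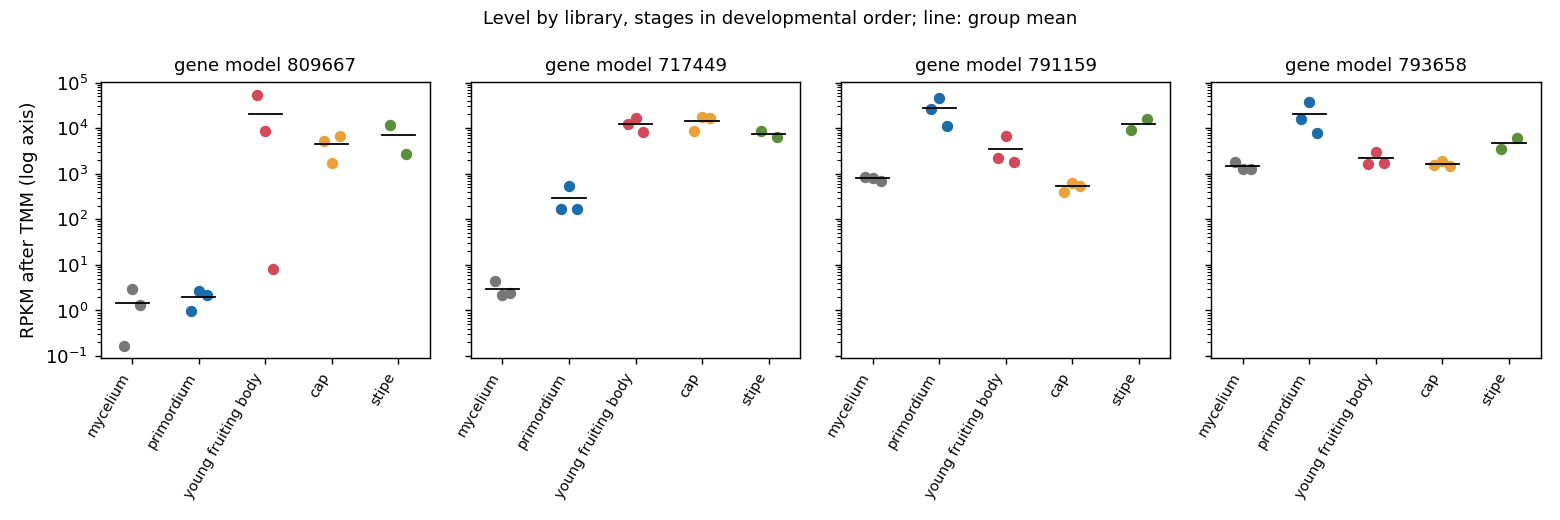
RPKM after TMM scaling (log axis) of the 4 named gene models in all 14 libraries, with stages in developmental order, 1 point per library and a line at the group mean. Young fruiting body replicate 3 is at 8.15 RPKM for gene model 809667, far below the other young fruiting bodies, while the other gene models show separated groups.

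The 20 largest gains and the 20 largest losses had different forms. The gains ranked 3 to 20 had means of 1851 to 9790 RPKM in young fruiting bodies and 64.2 to 403 RPKM in primordia, with log2 changes of 3.01 to 7.25 (edgeR adjusted p 4.05e-05 to 0.00202). The losses ranked 3 to 20 had means of 132 to 2360 RPKM in young fruiting bodies and 4215 to 12090 RPKM in primordia, with log2 changes of -5.52 to -1.57 (edgeR adjusted p 0.000138 to 0.018). The median length of the 20 gaining models was 524.5 bases and that of the 20 losing models 881 bases, against 1196 bases over all tested genes. Both sets were ranked by RPKM, a level per kilobase, which favours short models. Their short lengths are thus partly set by the choice.

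The steadiest of the large gains was the gene ranked 8. It averaged 3246 ± 198 RPKM in young fruiting bodies and 403 ± 36.6 RPKM in primordia (SD, n = 3 each), 3.01 ± 0.28 apart on the log2 scale (SE; edgeR adjusted p = 4.05e-05). In mycelium it stood at 12.4 ± 0.71 RPKM (SD, n = 3). The gain ranked 3 was uneven within primordia, which ran from 2.29 to 185 RPKM, against 6157 to 14330 RPKM in young fruiting bodies. That gene stayed high in mature tissue, at 9789 ± 2650 RPKM in caps (SD, n = 3) and 12740 ± 3507 RPKM in stipes (SD, n = 2), and was nearly absent from mycelium at 0.0625 ± 0.108 RPKM (SD, n = 3).

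The steepest of the 20 losses was the gene ranked 10. It averaged 137 ± 14.0 RPKM in young fruiting bodies and 6305 ± 4476 RPKM in primordia (SD, n = 3 each), or -5.52 ± 0.72 on the log2 scale (SE; edgeR adjusted p = 0.000159). Its young fruiting body libraries lay within 122 to 150 RPKM, while its primordium libraries ran from 1280 to 9864 RPKM. For all 20 losing genes both the cap and the stipe mean lay below the primordium mean, which the choice of genes for high primordium levels favours. For gene model 791159 the stipe libraries, at 8982 and 15560 RPKM, reached into the primordium range of 11090 to 45970 RPKM. Stipe means exceeded cap means for 18 of the 20 losing genes, and for 6 of the 20 gaining genes. The share over all tested genes is not given here. Of the gaining genes, 13 were picked for 1 pattern with higher levels in caps than in stipes, described below.

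**Figure D3:**
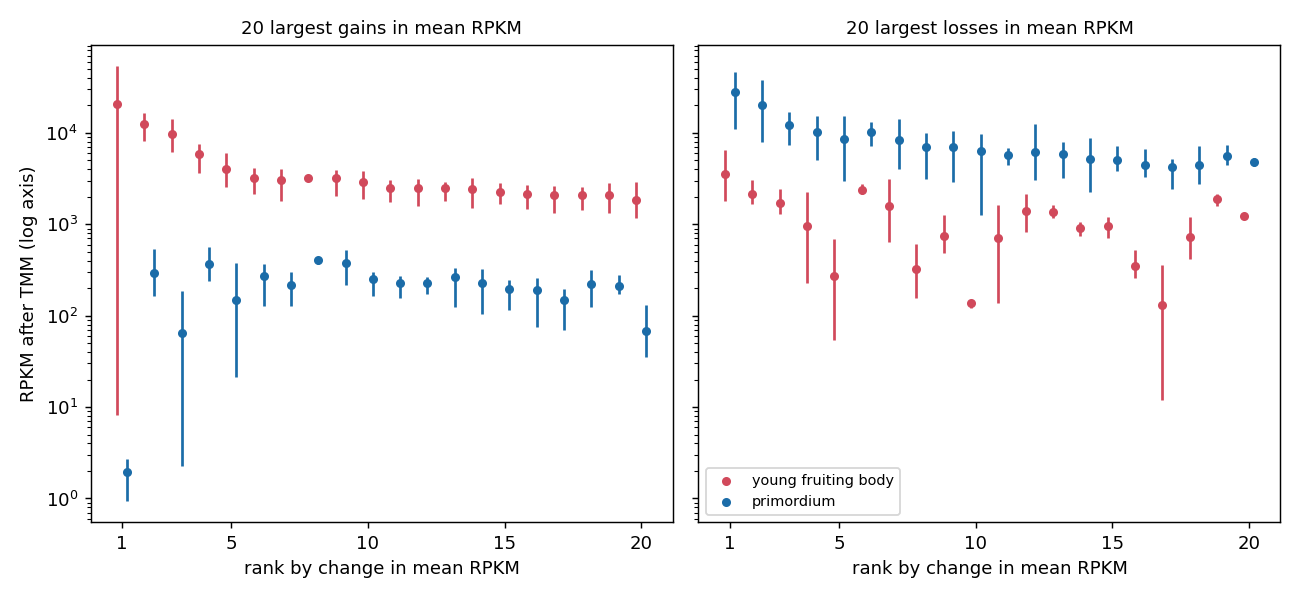
RPKM after TMM scaling (log axis) of the 20 largest gains and the 20 largest losses in mean RPKM, by rank. Points are group means and lines run from the lowest to the highest of the 3 libraries; apart from the first gain, whose young fruiting body range begins at 8.15 RPKM, gains sit above 1000 RPKM in every young fruiting body library.

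Among the 20 gains, 13 short gene models of 383 to 771 bases shared a pattern, seen only after their values were known. The 13 were picked by cuts on these values: means of at least 500 RPKM in mycelium, at least 1000 RPKM in caps and under 400 RPKM in stipes. Their median level was 3052, 2676 and 1658 RPKM in young fruiting body replicates 1, 2 and 3, against 281, 126 and 263 RPKM in primordium replicates 1, 2 and 3. Together they took 1.19% to 2.01% of the reads of young fruiting bodies, against 0.0569% to 0.150% in primordia. The lowest of the 13 in any young fruiting body library stood at 1323 RPKM, above the highest in any primordium library at 529 RPKM. All 13 came from the largest gains among genes that did not overlap, so a gap between the groups is set by the choice. Their log2 changes lay in a narrow band from 3.09 to 3.82, with edgeR adjusted p-values up to 0.000578. Across stages the medians were 631 to 994 RPKM in mycelium, 774 to 1870 RPKM in caps, and 294 and 139 RPKM in stipes.

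Other genes were then matched to this pattern in the mycelium, cap and stipe libraries alone. Of 9361 genes averaging at least 10 CPM there, 132 others had a Pearson correlation of at least 0.95 over those 8 libraries with the median pattern of the 13. In the comparison 115 of the 132 (87.1%) were called higher and 0 lower, against 20.5% and 13.1% of all genes tested. This count is a description and no independent evidence, since the 13 genes that set the pattern were picked from the largest gains of the same comparison. Their median log2 change was 2.32, beside 0.24 over all genes. The number called higher was 110 with DESeq2 size factors, 125 with library size alone and 111 with the length trend removed. With a correlation of at least 0.98, 31 of 32 genes were called higher. The matched genes were less short, with a median of 887 bases. In those 8 libraries the pattern is chiefly a lower level in stipes than in caps and mycelium; it was chosen after the values were seen and was not tested against other patterns.

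**Figure D4:**
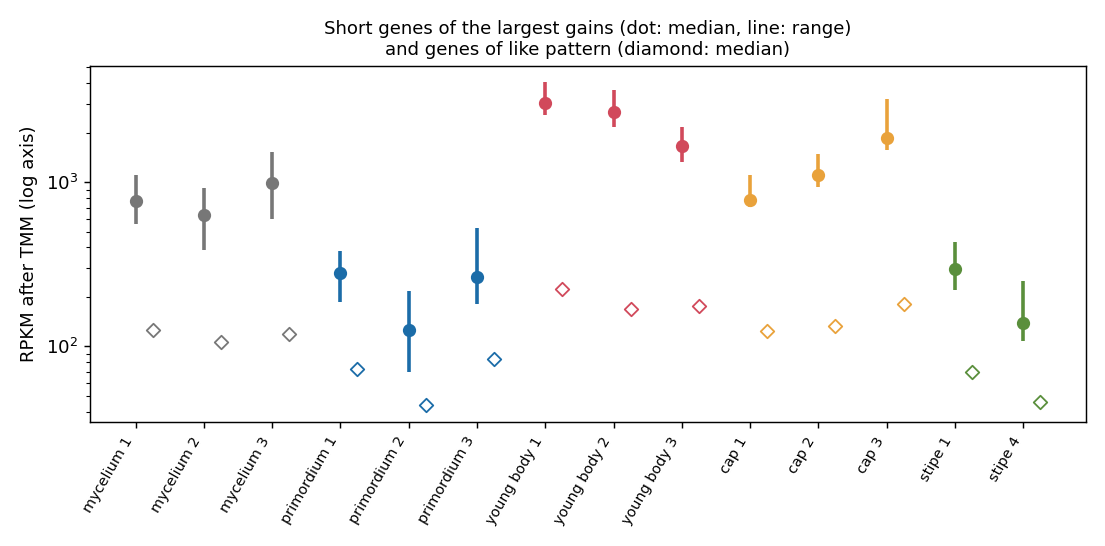
RPKM after TMM scaling (log axis) in all 14 libraries, stages in developmental order, of the 13 short gene models of the largest gains (dot for the median, line for the range) and of the 132 genes matched to them outside the comparison (diamond for the median). Medians of the 13 are 1658 to 3052 RPKM in young fruiting bodies and 126 to 281 RPKM in primordia.

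Lists drawn from mature tissue moved apart at this step. Of the 500 gene models most abundant per length in caps, 213 (42.6%) were higher and 85 (17%) lower in young fruiting bodies, beside 20.5% and 13.1% of all genes tested. Of the 500 most abundant in stipes, 81 (16.2%) were higher and 170 (34%) lower. All genes are an unlike background for abundant ones, since a change is more readily called at high counts. Of genes averaging 100 to 1000 CPM outside the comparison, 22.9% were higher and 25.8% lower. That class was not matched to the lists. The cap and stipe lists share 284 genes. Set relative to all tested genes, the median log2 change was 0.50 for the cap list and -0.80 for the stipe list. With library size alone the stipe list had 118 higher and 120 lower genes, while its median relative to all genes was -0.79. With the length trend removed the median of the cap list was 0.30.

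The stipe list separated the groups library by library. Its median deviation from each gene's mean over the 6 libraries, less that of all genes, was -0.58, -0.094 and -0.71 on the log2 scale in young fruiting body replicates 1, 2 and 3, against 0.73, 0.37 and 0.15 in primordium replicates 1, 2 and 3. For the cap list these values were 0.31, 0.35 and -0.026 in young fruiting bodies, against -0.071, -0.43 and -0.33 in primordia. Neither list overlapped between the groups. The margin was narrow for the cap list, where young fruiting body replicate 3 lay close to primordium replicate 1.

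Genes abundant in mycelium had no common direction. Of the 500 most abundant there, 154 (30.8%) were higher and 115 (23%) lower in young fruiting bodies. All genes gave 20.5% and 13.1%, but a change is more readily called at high counts. Of genes averaging 100 to 1000 CPM outside the comparison, 22.9% were higher and 25.8% lower. The list's share of lower genes was thus not above that of this class, while its share of higher genes was. The class was not matched to the list. The list's level relative to all genes overlapped between the groups. Of 872 gene models without a read in any mycelium library, 385 passed the filter on low counts. Without mycelium reads they passed it only through the other groups, which include the 2 compared. Of the 385, 19 (4.94%) were higher and 16 (4.16%) lower, beside 20.5% and 13.1% of all genes. All genes were not matched to them in level, so these shares are not read as a trait of genes silent in mycelium. The lower count was 6, 6 and 4 without young fruiting body replicate 1, 2 and 3. The higher count was 11 without young fruiting body replicate 1. With only the 6 libraries in the fit 6 were higher and 10 lower.

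Of the 500 genes steadiest over the 8 other libraries, 71 (14.2%) were higher and 56 (11.2%) lower, and the difference from other genes was not tested. These counts moved with the scaling, to 57 higher and 75 lower with DESeq2 size factors and 158 higher and 24 lower with library size alone. Relative to all genes the list's median log2 change was -0.15 with each of these scalings and -0.075 with the length trend removed. Its library values relative to all genes did not overlap, at -0.16 to -0.11 in young fruiting bodies and 0.056 to 0.12 in primordia. The 608 gene models with under 90% of reads unique, whose reads may belong to a near-identical copy, had 514 tested members, of which 90 (17.5%) were higher and 41 (7.98%) lower, beside 20.5% and 13.1% of all genes. Library size alone gave 143 higher and 24 lower of these, and only the 6 libraries in the fit gave 48 and 25.

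Gene length moved with the comparison. In 5 bins of equal size from the shortest (150 to 698 bases) to the longest models (1940 to 12044 bases), the median log2 change was 0.61, 0.40, 0.28, 0.11 and -0.08. In the shortest bin 730 of 3112 genes were higher and 227 lower, and in the longest 539 of 3112 were higher and 620 lower, where all genes gave 20.5% and 13.1%. The balance among long genes turned with the scaling. The longest of 3 bins had 939 higher and 976 lower genes with TMM, 1543 and 512 with library size alone, and 1218 and 685 with the length trend removed. With the trend on length removed the medians of the 5 bins were 0.26, 0.24, 0.29, 0.29 and 0.25, nearly equal by construction.

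Per library, whether the groups separated by length depended on the measure. With genes cut into 3 bins of length, the shortest bin deviated from each gene's mean over the 6 libraries, less the deviation of all genes, by 0.24, 0.34 and 0.086 on the log2 scale in young fruiting body replicates 1, 2 and 3, against -0.16, -0.30 and -0.26 in primordium replicates 1, 2 and 3. For the longest bin these medians were -0.19, -0.25 and -0.065 in young fruiting bodies, against 0.050, 0.18 and 0.17 in primordia. The groups did not overlap in either bin. They did overlap when bins were compared within a library.

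In that form, the median log2 RPKM of the longest bin stood above that of the shortest by 1.67, 1.44 and 1.80 in young fruiting body replicates 1, 2 and 3, against 1.74, 1.80 and 1.94 in primordium replicates 1, 2 and 3. The mean difference between groups was -0.19 (exact permutation test, two-sided p = 0.2, adjusted p = 0.2). The labels state that RNA of high integrity was used throughout. The part of RNA quality in the length trend was not tested.

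The balance of directions differed by abundance in the other tissues, a difference that was not tested. Genes low in those tissues could pass the count filter through the compared groups themselves. A change is also more readily called at high counts, so part of these shares is set by the level. By mean level in the 8 other libraries, 259 of 1422 genes under 1 CPM were higher (18.2%) and 41 lower (2.88%), beside 20.5% and 13.1% of all genes. Of 4776 genes at 1 to 10 CPM, 720 were higher (15.1%) and 342 lower (7.16%). Of 7513 genes at 10 to 100 CPM, 1794 were higher (23.9%) and 1182 lower (15.7%). The share of lower genes was thus larger in each bin than in the bin below it, and this went on above. Of 1785 genes at 100 to 1000 CPM, 408 were higher (22.9%) and 461 lower (25.8%), and of 63 genes at 1000 CPM or more, 11 were higher (17.5%) and 19 lower (30.2%).

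The pooling of primordium stages was examined by leaving out each primordium library in turn, calling genes without it, and asking where it stood. Of 3070 genes called higher without the stage 1 library, replicate 2, that library lay farther from the young fruiting bodies than both stage 2 libraries for 31.2%, and within the range of these for 35.9%. It lay between them and the young fruiting bodies for 24.1%, and in the young fruiting body range or past it for 8.83%. Stage 2 replicate 1, left out in the same way, was farther for 20.1% and between for 30.1% of 3120 genes. Stage 2 replicate 3 was farther for 13.4% and between for 40.8% of 3486 genes.

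The same order was not found among the lower genes. The stage 1 library was farther for 29.1% of 2035 genes, replicate 1 for 31.0% of 2018 and replicate 3 for 11.4% of 2174. Replicate 3 was thus the primordium library nearest to young fruiting bodies in both directions, lying between for 50.8% of the lower genes. Its median level over those genes was 0.58 lower on the log2 scale than the mean of the other primordia, against -0.046 for replicate 1 and 0.026 for the stage 1 library. With a single stage 1 library, stage and individual cannot be told apart.

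**Figure D5:**
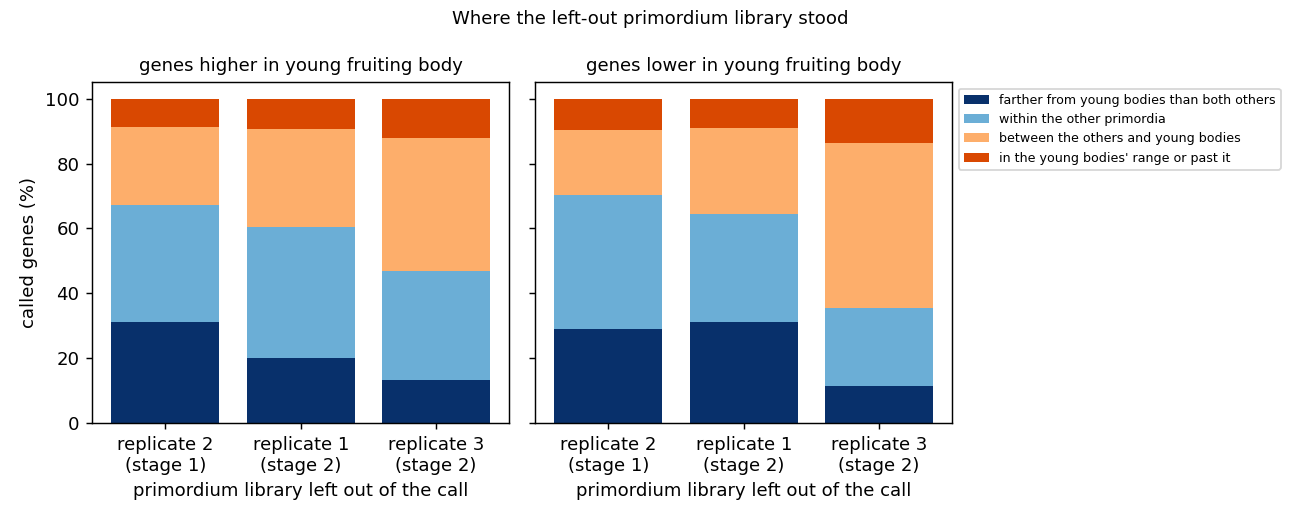
Share of called genes (%, stacked bars) by where each primordium library stood when it was left out of the call, for genes higher (left) and lower (right) in young fruiting body. Replicate 3 lies between the other primordia and the young fruiting bodies for 40.8% of higher and 50.8% of lower genes, more than replicates 1 and 2.

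The 3 primordium libraries also lay farther from each other than the young fruiting bodies did, which was not tested. At a common depth, the median absolute log2 difference between library pairs over 13018 genes was 0.36 to 0.52 in young fruiting bodies and 0.61 to 0.65 in primordia. The pair of stage 2 primordia, at 0.65, was no closer than either was to the stage 1 library, at 0.61 and 0.65. The median SD per gene was 0.37 in young fruiting bodies and 0.56 in primordia on the log2 scale, and the SD was larger in primordia for 67.8% of genes. The difference between these medians, -0.19, was -0.098 to -0.068 without any one primordium library and -0.31 without young fruiting body replicate 2; an SD from only 2 libraries tends to have a lower median. The 3 primordium libraries had mean Spearman correlations across genes with the young fruiting bodies of 0.855 for the stage 1 library, 0.878 for replicate 1 and 0.887 for replicate 3, as a description over genes.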

How the data were processed

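The deposited total read counts per gene model (set Ricmel1, 17139 models) were raw whole numbers, per the file headers, as were the unique read counts. The deposited RPKM and TPM values were not used; RPKM here was computed from counts and the deposited gene lengths. The computation was checked against the authors' deposited matrix of log2 RPKM (15477 models). For this check the scaling was redone over those models, while the RPKM reported here is scaled over the 15559 genes tested. The log2 values of the check differed by at most 0.014 over the 8113 models with at least 50 reads in every library. Per the submitters' processing notes R 3.0.2, edgeR 3.4.2 and limma 3.18.13 were used; no mapper or genome build is given there. The labels name a TrueSeq RNA kit v2, and strand is not stated.

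Counts of the whole series (14 libraries, 9 residual degrees of freedom) were fitted together in edgeR 4.0.16 (R 4.3.3), with TMM scaling, filterByExpr and the quasi-likelihood test, Benjamini-Hochberg adjusted over 15559 genes. Log2 levels used a prior count of 2. The RPKM pseudocount in the length measure was 0.1. Length trends were fitted by lowess (span 0.4) and centred, so that only their shape was removed. Detection at a common depth is the expected number under sampling without replacement. Floors cover counting error only.

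Named genes were the 2 largest gains and 2 largest losses in RPKM among genes that passed the conditions stated with them. Lists by product name, which had been planned, were not used, since the files hold no product names. Members, lists and rules were chosen with earlier results of these data known. On simulated data for this comparison (15559 genes, 200 changed), 2.73% of calls were false. Recovered were 8% of 2-fold, 46% of 4-fold, 72% of 8-fold and 88% of 16-fold changes. A call needs an estimated change of 2-fold or more, so the 8% is held down by the rule itself. Apart from the 200 genes, changed equally often up and down, both groups had the same mean in the simulation. In the data 33.7% of genes were called, and the split of directions moved with the scaling. The simulated shares of recovered changes and of false calls therefore do not carry over to the calls reported here. Alternatives were DESeq2 1.42.0, limma-voom (limma 3.58.1), other scalings, filters and read types, fewer libraries, each library left out, and the replicate number as a block.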

Additional observations from a re-analysis of the deposited data

Results flagged for a closer look

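Signal was present in gene models that were left out of the test for low counts in too few libraries. In primordium replicate 2, the stage 1 library, 21 such gene models reached 10 CPM, with under 1 CPM in each of the other libraries of the series. They held 70678 reads, 0.384% of that library, and 18 of them had no read elsewhere. The same was found for 5 gene models in primordium replicate 3, with 1868 reads, and for 2 gene models in young fruiting body replicate 1, with 1933 reads. The other young fruiting body and primordium libraries had 0 such models. The median share of unique reads of these models was 100% in each of the 3 libraries.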

How the results depend on the processing

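The count of 5237 called genes became 2603 (1760 higher, 843 lower) when 4-fold was required, fewer by construction. With only the 6 libraries in the fit, 3694 were called, of which 2017 were higher, and with the replicate number as a block among them 2770 (1457 higher, 1313 lower). Same-numbered libraries did not deviate together (correlations of -0.05, -0.13 and -0.005), so the numbers are not taken as pairs. Library size alone gave 4880 higher and 1100 lower genes. The cause was not tested. Leaving out each library gave 4289 to 5666 called genes, 2662 to 3491 higher and 1594 to 2175 lower. Counting each named gene under each alternative, direction and call were as before in 62 cases and the call was lost in 2. Cases under the other scalings and with the length trend removed were fixed in advance. The named genes had been chosen to hold their call there. Gene model 809667 was not called by limma-voom or with the block (edgeR adjusted p = 0.0904 with the block).

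Relative to all tested genes, list medians moved as follows. With the length trend removed they were 0.30 for the cap list, -0.075 for the steady list and 0.016 for genes under 90% unique. For the shortest and longest of 3 length bins they were -0.013 and 0.001, which the removal of the trend fixes in advance. With lists of 200 they were 0.80 for cap and -0.054 for steady genes, and with only the 6 libraries -0.12 for steady genes. With each library left out, they ran from -0.25 to -0.11 for steady genes and from 0.076 to 0.25 for genes under 90% unique. The mycelium list, at -0.25, was at -0.53 with a list of 200, -0.43 with the length trend removed, -0.018 without young fruiting body replicate 3 and -0.47 without primordium replicate 2. Genes without a mycelium read, at -0.19, were at -0.63 without young fruiting body replicate 1 and 0.12 without primordium replicate 2. The difference in median SD, -0.19, was -0.13 at 10 CPM or more and -0.31 to -0.068 with each library left out. The stage 1 library was farther for 23.8% of higher and 22.8% of lower genes at 4-fold. With at least 5 CPM, 4 genes had reads only in young fruiting bodies and 0 only in primordia.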
